A study of Homo sapiens with 25 samples.

Results

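The surfactant protein genes SFTPA1, SFTPA2, SFTPB, SFTPC and SFTPD were examined in chromatin immunoprecipitation sequencing (ChIP-seq) peak lists of human lung adenocarcinoma cell lines. They are 5 of the 19970 protein-coding genes on chromosomes 1 to 22 and X, and all peaks overlapping a gene body or the 50 kb on each side of it were taken. Because the windows of SFTPA1 and SFTPA2 overlap they were joined, which gave 4 loci that held 558 of the 1257083 peaks of the 20 lists. The 4 lines, NCI-H2087 first and then NCI-H358, NCI-H441 and HCC364, were grown in serum-containing medium without a treatment and fixed with formaldehyde. Antibodies against NKX2-1, H3K27ac (a mark of active promoters and enhancers) and H3K4me1 (a mark of enhancers) were used in each line. In NCI-H2087 there were 8 more: FOXA1 and FOXA2 (forkhead factors that open chromatin), SOX2, c-Jun (a subunit of AP-1), EP300 (which acetylates histones), the insulator protein CTCF, RNA polymerase II (RNAPolII) and the promoter mark H3K4me3. The question was where NKX2-1 and its neighbours on chromatin lie at these genes, and whether the lines share those places. Each line and antibody is 1 library of the 25 in the series, 5 of which, without antibody, were not analysed here, so the lines have no replicate check and no test was made between them.

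Pulmonary surfactant is the film of lipids and proteins that lowers surface tension in the air spaces, and it is made by alveolar type 2 cells. SFTPB and SFTPC encode small hydrophobic proteins that spread and hold the lipid film. SFTPA1, SFTPA2 and SFTPD encode collectins, lectins with a collagen-like tail that bind microbes in the air space. NKX2-1 is the homeodomain factor of the lung epithelium and thyroid and a known activator of surfactant promoters, often with FOXA factors.

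SFTPA2 (chromosome 10, 79555852 to 79560407, minus strand) and SFTPA1 (chromosome 10, 79610939 to 79615455, plus strand) point away from each other across a gap of 50.5 kb. SFTPD lies on the same chromosome (79937740 to 79982383, minus strand), 322 kb beyond SFTPA1. SFTPB is on chromosome 2 (85657307 to 85668741, minus strand). Positions are those of the GRCh38.p14 gene table. SFTPA2 and SFTPB each had 2 annotated starts.

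The promoters of the SFTPA pair are shown because FOXA1 and FOXA2 summits lay on or beside a forkhead match in both. They are from RefSeq (GRCh38.p14), given 5′ to 3′ on the strand of the gene, as the 250 bases before the start. Capitals mark matches to the letters CTCAAG (an NK2 family core), TGTTTNC (forkhead), TGANTCA (AP-1) and GCNCTNNAG (a form of the NKX2-1 sites of the SFTPB promoter), on either strand. A further NK2 core, CAAGTG, was searched and not found in them.
SFTPA1, chr10:79610689-79610938, plus strand: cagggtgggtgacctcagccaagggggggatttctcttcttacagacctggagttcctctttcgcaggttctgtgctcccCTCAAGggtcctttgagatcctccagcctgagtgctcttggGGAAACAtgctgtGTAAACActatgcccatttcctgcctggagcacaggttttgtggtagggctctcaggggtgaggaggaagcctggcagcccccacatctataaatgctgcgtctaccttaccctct
SFTPA2, chr10:79560408-79560657, minus strand: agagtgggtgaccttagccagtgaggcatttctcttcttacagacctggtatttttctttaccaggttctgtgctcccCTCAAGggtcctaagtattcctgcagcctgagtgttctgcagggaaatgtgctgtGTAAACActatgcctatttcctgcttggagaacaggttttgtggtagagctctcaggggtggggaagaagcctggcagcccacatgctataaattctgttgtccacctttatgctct
These promoters were identical at 214 of 255 alignment columns (83.9%), with a longest identical run of 28 bp. Reads that differ little between the copies can be placed on the wrong one. How far this affected the SFTPA1 and SFTPA2 starts was not tested, so which of the pair their values belong to keeps some uncertainty. CTCAAG lay 170 to 165 bases before the SFTPA1 start and 172 to 167 before the first SFTPA2 start. The forkhead match GTAAACA lay 116 to 110 bases before the SFTPA1 start and 117 to 111 before the SFTPA2 start, and SFTPA1 had another, GGAAACA, at 129 to 123. Over the 250-base stretches before all 22155 annotated starts, CTCAAG was present in 9.51%, the forkhead letters in 13.0%, the AP-1 letters in 5.36%, GCNCTNNAG in 15.1% and CAAGTG in 8.54%.

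Shorter stretches are shown at the second starts of SFTPB and SFTPA2, where summits also lay close to matches. Capitals mark 3 overlapping matches to GCNCTNNAG at SFTPB and 1 AP-1 match at SFTPA2.
SFTPB, chr2:85668280-85668309, minus strand: gcacCTGGAGGGCTCTTCAGAGCaaagaca
SFTPA2, chr10:79559922-79559951, minus strand: ggacagatggagTGAGTCAgtgagtgagtg

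The lists held 7406 (EP300) to 121789 (HCC364 H3K4me1) peaks on these chromosomes. Read totals were not used here; the lowest local background solved from the peak values, a measure of relative depth, was 2.54 to 2.85 fragments in the 4 NKX2-1 libraries and 1.13 to 4.19 over all 20. Of 6 epithelial markers (EPCAM, CDH1, KRT8, KRT18, KRT7 and KRT19) all 6 had an H3K27ac peak within 1 kb of the start in each line. Of 3 endothelial markers (PECAM1, CDH5 and VWF) none did, of 4 fibroblast markers 1 did in each line (COL1A1), and of 4 blood cell markers 1 or 2 did. The alveolar type 2 list holds 9 genes, among them the 5 surfactant proteins. It had 5 for NCI-H2087, 2 for NCI-H358, 6 for NCI-H441 and 5 for HCC364. SFTPC is in each of these counts, only by its end beside the neighbouring gene BMP1. The alveolar type 1 list of 5 had 4, 3, 3 and 3.

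NKX2-1 was found near every surfactant protein gene in NCI-H2087, NCI-H441 and HCC364, but the SFTPA pair had no NKX2-1 peak in NCI-H358. At least 1 NKX2-1 peak lay in the window of 5 of 5 members for NCI-H2087 (92.9% of all genes), 3 of 5 for NCI-H358 (90.4%), 5 of 5 for NCI-H441 (93.3%) and 5 of 5 for HCC364 (94.8%). Most genes have a peak in such a window, and the 2 members without one in NCI-H358 were SFTPA1 and SFTPA2. A missing peak means only that none passed the threshold of the peak caller. H3K27ac lay in the window of 5 members for NCI-H2087 (87.6% of all genes), 3 for NCI-H358 (85.9%), 4 for NCI-H441 (86.4%) and 3 for HCC364 (87.2%). A region bound in 4 lines was present at 3 of 5 members, SFTPB, SFTPC and SFTPD, against 80.5% of all genes.

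The SFTPA locus had 10 NKX2-1 peaks for NCI-H2087, 0 for NCI-H358, 11 for NCI-H441 and 7 for HCC364. SFTPB had 14, 8, 20 and 16 peaks in the same order of lines. SFTPC had 3, 16, 9 and 15, and SFTPD had 8, 3, 6 and 8. NCI-H358 was thus lowest at the SFTPA pair, SFTPB and SFTPD and highest at SFTPC, where NCI-H2087 was lowest. Measured as peaks per window length and ranked among all protein-coding genes, SFTPB stood at percentile 84.1 in its lowest line and 99.8 in its highest. SFTPC ranged from percentile 36.4 to 99.3, SFTPD from 31.6 to 70.5, SFTPA1 from 4.80 to 87.9 and SFTPA2 from 4.80 to 83.3.

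**Figure D1:**
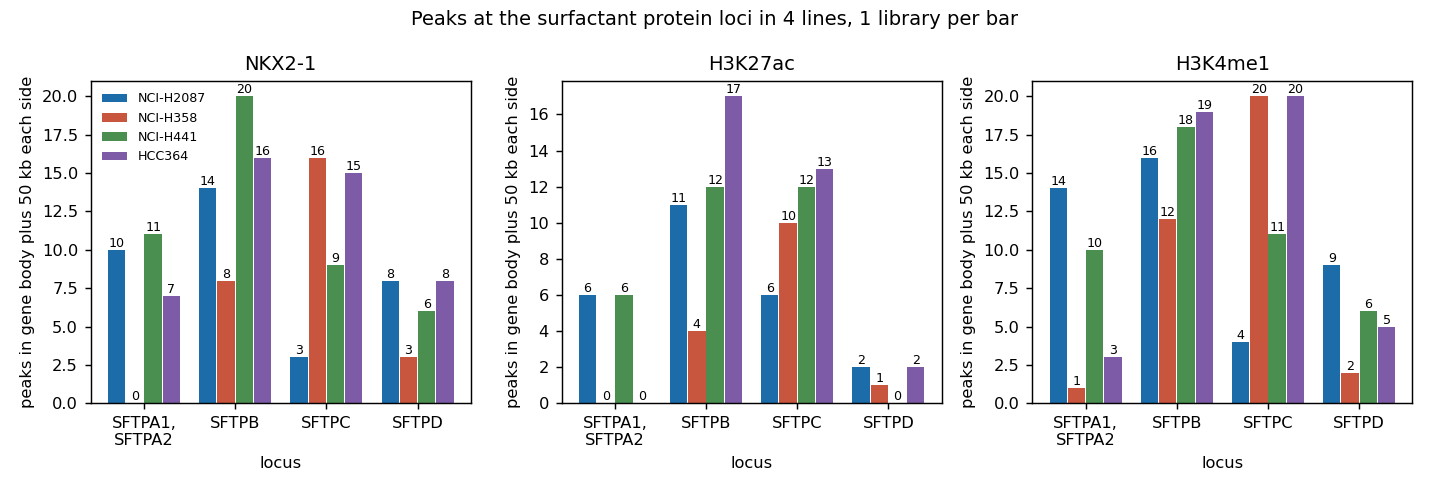
Number of NKX2-1, H3K27ac and H3K4me1 peaks (vertical axes) at each of the 4 surfactant protein loci (horizontal axes) in 4 lines, 1 library per bar. NCI-H358 had 0 NKX2-1 peaks at the SFTPA pair and 16 at SFTPC; HCC364 had 7 NKX2-1 peaks and 0 H3K27ac peaks at the SFTPA pair.

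The NKX2-1 peaks of the 4 lines merged into 67 regions, 15 at the SFTPA pair, 22 at SFTPB, 20 at SFTPC and 10 at SFTPD. Of these, 11 were bound in 4 lines (16.4%, where 22.3% of all 145799 regions were), 16 in 3, 16 in 2 and 24 in 1. The regions bound in 4 lines were 6 at SFTPB, 3 at SFTPC and 2 at SFTPD, with 0 at the SFTPA pair. NCI-H358 was the missing line at 11 of the 16 regions bound in 3 lines, and NCI-H2087 at the other 5. These lines had the shortest NKX2-1 lists, 75747 and 75657 peaks, against 90578 for NCI-H441 and 87160 for HCC364. How often each line was missing over all regions bound in 3 lines is not given here. The counts therefore cannot be read as particular to these loci. Of 38 H3K27ac regions at these loci 8 were found in 4 lines (23.9% of all H3K27ac regions), and of 71 H3K4me1 regions 13 were (21.2% of all).

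At the starts of the collectin genes SFTPA1 and SFTPA2, NKX2-1 was strong in NCI-H2087 and NCI-H441 and weaker in HCC364. At the SFTPA1 start the fold over local background, as the peak caller wrote it, was 46.0 in NCI-H2087, 32.6 in NCI-H441 and 14.4 in HCC364, with no peak in NCI-H358. At the SFTPA2 start it was 32.7, 26.0 and 6.22 in the same 3 lines. Behind these folds stood 178, 164 and 50 fragments at the SFTPA1 summit and 127, 99 and 21 at the SFTPA2 summit. The SFTPA1 peak was among the strongest 1.27% of the NCI-H2087 list and 4.49% of the NCI-H441 list, but only among the strongest 26.4% of the HCC364 list.

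H3K27ac was present with NKX2-1 at both starts in NCI-H2087 and NCI-H441, but in HCC364 NKX2-1 was present without it. The H3K27ac fold at SFTPA1 was 6.08 in NCI-H2087 and 12.1 in NCI-H441, and at SFTPA2 11.7 and 11.4. Its strength did not follow that of NKX2-1 at SFTPA1, where NKX2-1 was higher in NCI-H2087. At SFTPA2 both were higher in NCI-H2087, H3K27ac only slightly. No H3K27ac peak lay anywhere in the SFTPA windows in HCC364 or NCI-H358. H3K4me1 covered both starts in 3 lines, with folds of 8.39, 10.5 and 6.65 at SFTPA1 and 12.7, 13.4 and 8.91 at SFTPA2 in NCI-H2087, NCI-H441 and HCC364. The SFTPA2 peak ranked among the strongest 0.291% of all H3K4me1 peaks of NCI-H2087. HCC364 thus had NKX2-1 and H3K4me1, without H3K27ac, at both SFTPA starts.

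The summits at these starts fell in the same place on both copies. NKX2-1 summits lay 151, 154 and 145 bases before the SFTPA1 start in NCI-H2087, NCI-H441 and HCC364, and 141, 139 and 203 bases before the SFTPA2 start. Apart from that of HCC364 at SFTPA2, they fell between CTCAAG and GTAAACA in the sequences shown above. In NCI-H2087 the FOXA1 summit lay 112 and the FOXA2 summit 109 bases before the SFTPA1 start, and both lay 110 bases before the SFTPA2 start, so all 4 were inside or within 1 base of GTAAACA. FOXA1 folds were 44.7 at SFTPA1 and 50.2 at SFTPA2, and FOXA2 folds 61.8 and 70.2. RNAPolII had weak peaks at both starts, with folds of 5.02 and 4.10, and H3K4me3 had no peak in the SFTPA windows.

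c-Jun was found at the SFTPA2 start with a fold of 10.8 and not at the SFTPA1 start. Its summit lay 68 bases before the second SFTPA2 start, on the first base of the AP-1 match TGAGTCA shown above, which spans 68 to 62 bases before that start.

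**Figure D2:**
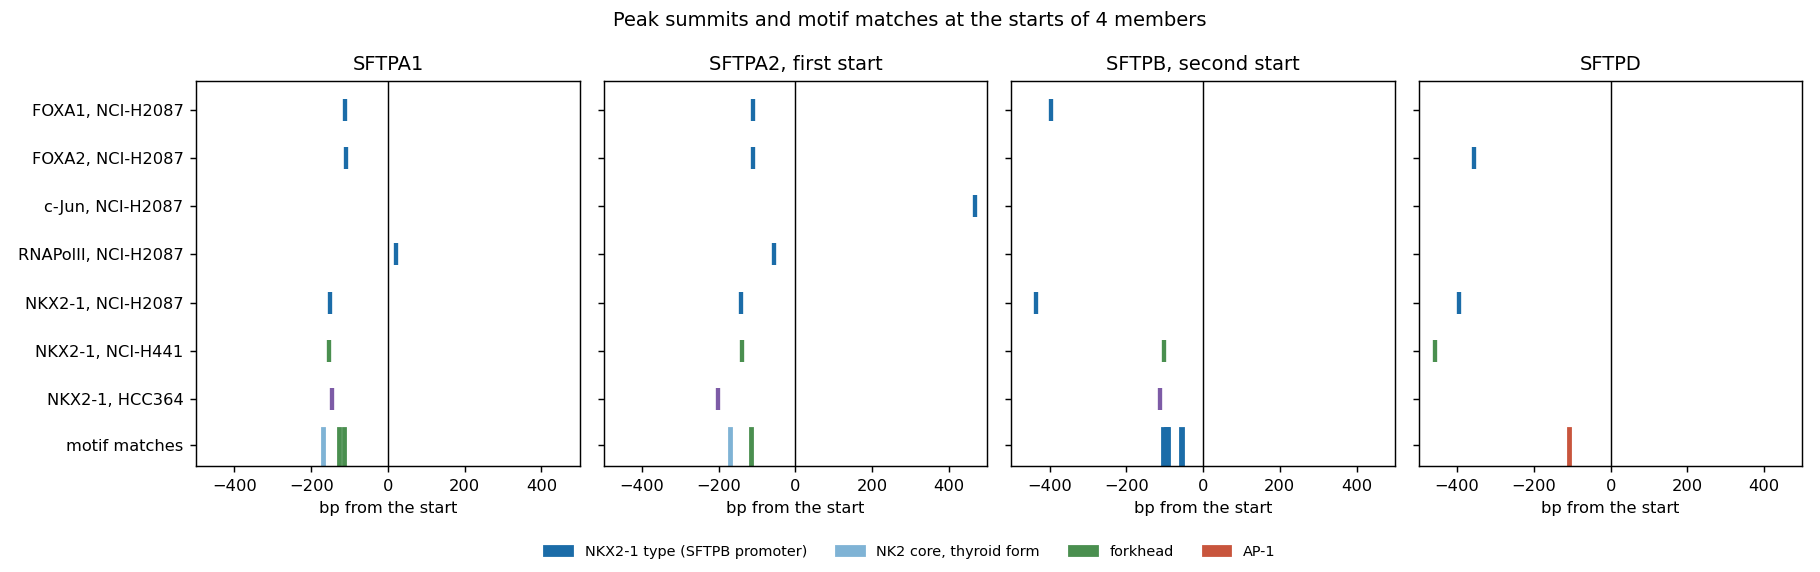
Position of peak summits (vertical ticks, coloured by line) in bp from the start of SFTPA1, SFTPA2, SFTPB (second start) and SFTPD, with motif matches in the 250 bases before each start drawn at the bottom. FOXA1 and FOXA2 summits lie 109 to 112 bases before both SFTPA starts, beside the forkhead match, and NKX2-1 summits lie 102 and 113 bases before the second SFTPB start in NCI-H441 and HCC364.

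Stronger than either start were 2 elements without a protein-coding gene over them. The first (chromosome 10, 79585639 to 79587555) lies between the genes, 24.3 kb before the SFTPA1 start, and had NKX2-1 folds of 60.3 in NCI-H2087, 49.2 in NCI-H441 and 15.3 in HCC364. The second (79626898 to 79628700), 16.9 kb downstream of the SFTPA1 start, had folds of 63.6, 46.7 and 22.1 and was the peak of rank 255 in the NCI-H2087 list. H3K27ac overlapped both in NCI-H2087 (folds 8.82 and 11.5) and NCI-H441 (11.4 and 15.9) and neither in HCC364, which also lacked H3K4me1 there.

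In NCI-H2087 both elements carried all 5 partner factors, FOXA1, FOXA2, SOX2, c-Jun and EP300, together with RNAPolII. FOXA2 had the highest fold of them, 88.1 at the first element and 72.2 at the second, and FOXA1 had 66.6 and 47.0. EP300 had folds of 9.91 and 12.8, the second among the strongest 2.15% of the EP300 list, and SOX2 had 10.4 and 7.03. The c-Jun peaks were weaker within their list, with folds of 9.52 (strongest 50.5%) and 6.79 (strongest 81.2%). RNAPolII was weak at both, with folds of 4.31 (strongest 78.7%) and 3.50 (strongest 94.3%). A further NKX2-1 region lay 12.5 kb downstream of the second SFTPA2 start (79546888 to 79547762). It had a fold of 19.5 in NCI-H2087 and no peak in another line, and carried FOXA1, FOXA2, SOX2 and c-Jun. CTCF lay between the genes, in front of each, with a summit 1.899 kb before the SFTPA2 start (fold 105, the strongest 1.55% of CTCF peaks) and one 1.976 kb before the SFTPA1 start (fold 60.1), and neither overlapped NKX2-1.

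The local background within 1 Mb of the SFTPA locus, as a ratio to the library's own median background, was 0.865 for NCI-H2087, 0.790 for NCI-H358, 0.769 for NCI-H441 and 0.909 for HCC364 (medians over the libraries of a line). In the NKX2-1 libraries alone it was 0.730 in NCI-H358 and 0.769 in NCI-H441. In each NCI-H358 library the value equalled the lowest background of its whole list, so a lower level at the pair could not show. The NCI-H358 values therefore cannot be ranked against those of the other lines. NCI-H358 had no NKX2-1 or H3K27ac peak at the pair and a single H3K4me1 peak, and the part of the background in this was not tested.

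At SFTPB the strongest binding lay 45.1 kb before the first start in NCI-H2087 and 42.4 kb before it in the other lines, between GNLY, which encodes the cytolytic protein granulysin, and ATOH8, and not at the promoter. The region at 36.9 kb (chromosome 2, 85704987 to 85706203) had NKX2-1 folds of 38.6 for NCI-H2087, 34.6 for NCI-H358, 38.5 for NCI-H441 and 71.6 for HCC364. The region at 42.4 kb (85710483 to 85711873) had folds of 73.9, 47.4, 70.5 and 79.6, and ranked 492 of the NCI-H358 list, 214 of the NCI-H441 list and 374 of the HCC364 list. The region at 45.1 kb (85713104 to 85714583) had 89.7, 11.2, 60.2 and 75.6, and was the peak of rank 48 in NCI-H2087. NCI-H358 was lowest of the 4 lines in each of these regions, by most at 45.1 kb.

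These 3 regions carried H3K4me1 in 4 lines but H3K27ac in NCI-H2087, NCI-H441 and HCC364 only. At 42.4 kb the H3K4me1 folds were 8.95, 16.6, 11.5 and 10.1, and NCI-H358, the line with no H3K27ac peak there, was the highest, its peak among the strongest 0.159% of its H3K4me1 list. H3K27ac folds at the same region were 6.91 in NCI-H2087, 10.4 in NCI-H441 and 9.24 in HCC364. Of the 4 H3K27ac peaks of NCI-H358 in the SFTPB window, the strongest had a fold of 24.6 and lay at the start of USP39, a spliceosome-associated protein gene. Weaker regions bound in 4 lines lay 33.2 kb (85701441 to 85702502; folds 5.15, 6.34, 9.57 and 9.05) and 38.8 kb upstream (85707194 to 85707821; 10.1, 5.94, 17.6 and 20.9), and at the USP39 start (85615884 to 85616334; 8.50, 12.7, 13.1 and 13.5).

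In NCI-H2087 the region at 42.4 kb had all 5 partner factors, with folds of 61.7 for FOXA1, 97.8 for FOXA2, 18.3 for SOX2, 10.4 for c-Jun and 15.6 for EP300. The EP300 peak was among the strongest 0.824% and the FOXA2 peak among the strongest 0.885% of their lists. The regions at 36.9 and 45.1 kb had 4 partners each, without SOX2 at the first and without c-Jun at the second, and all 3 regions overlapped RNAPolII. CTCF had its strongest peak at these loci 10.6 kb before the first SFTPB start (fold 140, the strongest 0.159% of its list), between the distal cluster and the gene.

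At the SFTPB starts themselves NKX2-1 was weaker, with folds of 7.86 in NCI-H2087, 19.9 in NCI-H441 and 28.5 in HCC364 and no peak in NCI-H358. The summits of NCI-H441 and HCC364 lay 102 and 113 bases before the second start, in or near the 3 overlapping GCNCTNNAG matches 106 to 88 bases before it, and a further match lay at 58 to 50. The NCI-H2087 summit lay 436 bases before the same start. H3K27ac folds at the starts were 4.39, 6.49 and 6.09 in these 3 lines and H3K4me1 folds 9.09, 10.5 and 9.48. In NCI-H2087 FOXA1 had a fold of 3.73, and H3K4me3 and RNAPolII had no peak within 1 kb of either start.

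By peak count and covered length HCC364 had the most H3K27ac at SFTPB, 17 peaks covering 25.4 kb. Its highest H3K27ac fold there, 17.2, was the lowest of the 4 lines (23.8, 24.6 and 31.7 in NCI-H2087, NCI-H358 and NCI-H441). NCI-H2087 had 11 peaks covering 11.9 kb, NCI-H358 4 covering 4.41 kb and NCI-H441 12 covering 15.5 kb. The widest H3K27ac peak of HCC364, 6.37 kb (85647982 to 85654347), lay beyond the 3′ end of the gene and reached the end of USP39. It held a region 15.2 kb downstream of the second start (85652484 to 85653511). NKX2-1 folds in that region were 19.4, 27.3 and 47.4 in NCI-H2087, NCI-H441 and HCC364. A region inside the gene, 5.18 kb from the second start (85662576 to 85663470), had folds of 7.55, 14.3 and 33.5 in the same lines. H3K27ac lay there in HCC364 only. Of the 17 H3K27ac regions at SFTPB, 8 were found in HCC364 alone and 0 in any other line alone. HCC364 also had the longest H3K27ac list, 56384 peaks against 47136 to 51482 in the other lines. The share of all H3K27ac regions found in HCC364 alone is not given here.

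The relative local background within 1 Mb of SFTPB was 1.48 for NCI-H2087 (1.37 to 1.72 over its 11 libraries), 1.08 for NCI-H358, 1.00 for NCI-H441 and 1.01 for HCC364. NCI-H2087 therefore had more background reads around SFTPB than the other lines, and their part in its peaks there was not tested; its peak count of 14 was below those of NCI-H441 and HCC364. A strong region lay 0.962 kb outside the window, over USP39 and C2orf68, with folds of 11.6, 34.8 and 19.7 in NCI-H2087, NCI-H441 and HCC364, and was not counted.

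**Figure D3:**
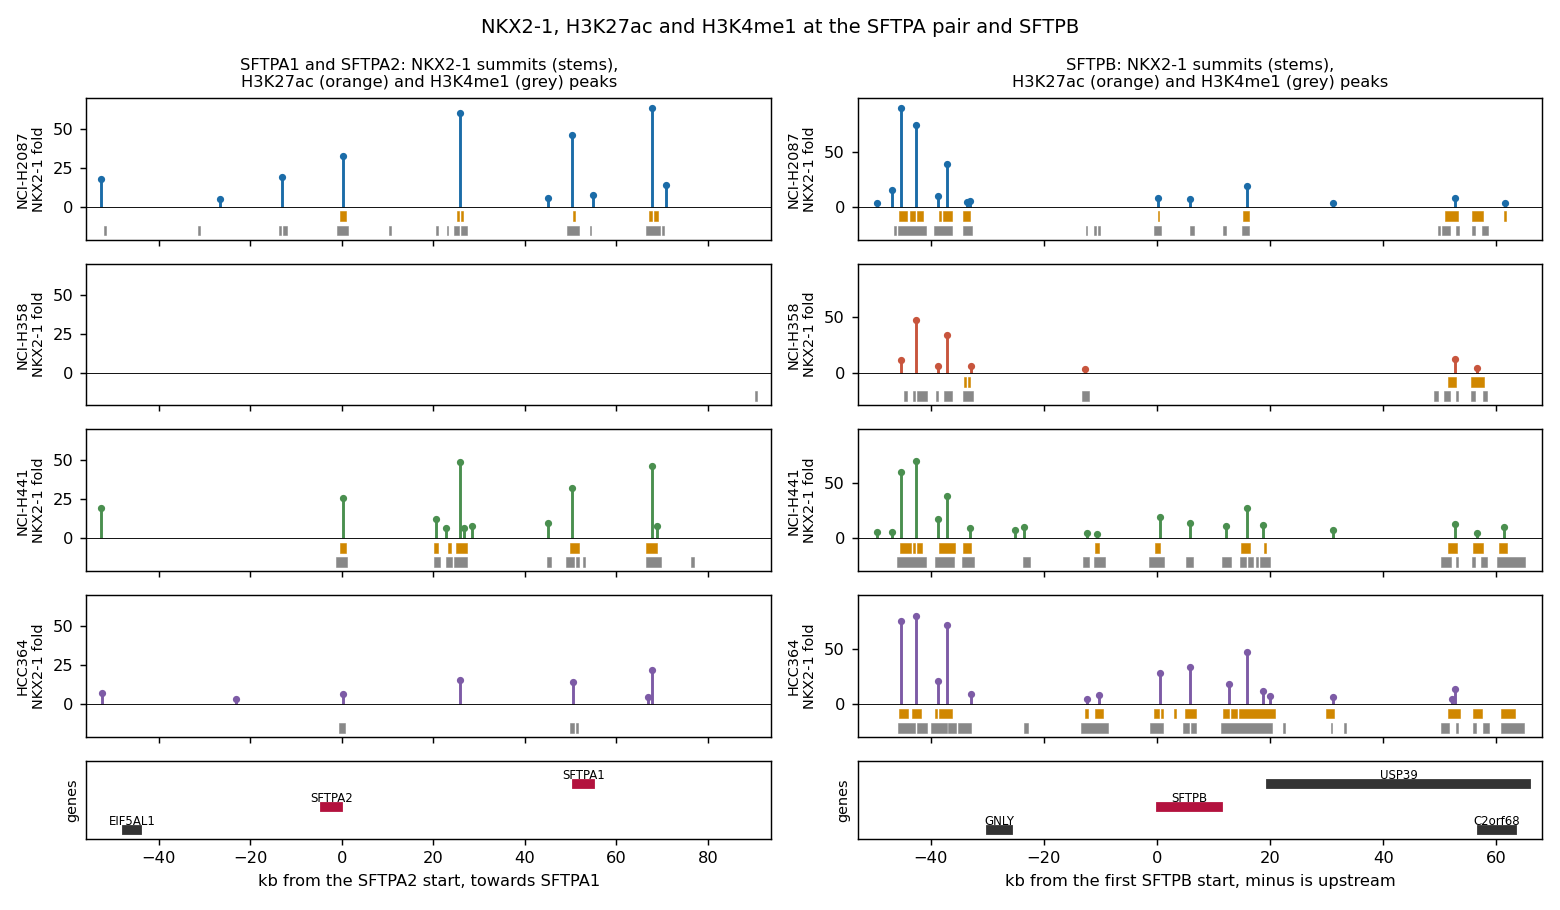
NKX2-1 peak summits (stems; vertical axes, fold over local background) and H3K27ac (orange) and H3K4me1 (grey) peaks against distance in kb, for the SFTPA pair (left) and SFTPB (right) in the 4 lines, with protein-coding genes below. The left NCI-H358 panel has no stem, and the tallest stems at SFTPB stand 42.4 or 45.1 kb upstream.

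SFTPD, the collectin gene between pseudogenes on chromosome 10, had strong NKX2-1 regions with little H3K27ac. The region 56.2 kb downstream of its start (79892449 to 79893372) had folds of 69.8 for NCI-H2087, 25.9 for NCI-H358, 47.6 for NCI-H441 and 24.5 for HCC364. The pseudogene PGGT1BP2 (79891851 to 79893199) overlaps this region, and whether reads were misplaced there was not tested. The region 36.3 kb upstream (79984613 to 79986111) had folds of 40.4, 20.8, 24.4 and 34.5. The upstream region had H3K4me1 in 4 lines, with folds of 9.36, 7.79, 11.8 and 6.76, and the downstream one in 3, all but NCI-H358. No line had an H3K27ac peak over either.

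A further strong region, 14.9 kb downstream of the start (79933622 to 79934859), was found in NCI-H2087 (fold 61.7), NCI-H441 (19.1) and HCC364 (5.37). In NCI-H2087 it carried 5 partners, and its SOX2 peak (fold 26.9) was among the strongest 0.248% and its c-Jun peak (fold 25.4) among the strongest 3.23% of their lists. The downstream region at 56.2 kb also carried 5 partners, with FOXA2 at 74.6 and EP300 at 8.09, and the upstream one carried FOXA1, FOXA2 and c-Jun. In HCC364 the second strongest region was one that no other line had, 38.6 kb downstream (79910296 to 79910810; fold 26.9), and it was 1 of 2 regions at SFTPD with H3K27ac.

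Within 1 kb of the annotated SFTPD start NKX2-1 had a fold of 7.40 in NCI-H2087 and 18.4 in NCI-H441 and no peak in NCI-H358 or HCC364. The summits lay 395 and 457 bases before the start, outside the 250 bases searched for motifs, which held 1 AP-1 match at 109 to 103. No line had H3K27ac within 1 kb of this start. The body of SFTPD reaches 33.3 kb further upstream, and at that far end NCI-H2087 had an H3K4me3 peak (79981249 to 79982697, fold 37.2) and NCI-H358 its single H3K27ac peak of the window (fold 6.49). The pseudogene ZNRF2P3 lies at the same place. The relative local background was 0.843, 0.790, 0.771 and 0.909 in NCI-H2087, then NCI-H358, NCI-H441 and HCC364. In NCI-H358 it again equalled the lowest background of each library, so a lower level could not show.

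Near SFTPC, the gene of the most hydrophobic surfactant protein, binding was weak and most of it lay over other genes, with many peaks in NCI-H358 and HCC364 and 3 in NCI-H2087, where the median of all genes was 5. SFTPC lies on chromosome 8 (22157383 to 22164479) and was matched to no annotated start here, so either end of the gene stood for its start. Its higher end lies 0.892 kb from BMP1, a protease that processes procollagen. The highest NKX2-1 fold in the window was 7.68 for NCI-H2087, 15.6 for NCI-H358, 13.0 for NCI-H441 and 21.8 for HCC364, below the highest fold of each other locus with peaks in the same line. In HCC364 the SFTPA pair was close to it, with a highest fold of 22.1. Of the 20 regions, 17 lay over the bodies of neighbouring genes and 2 over SFTPC itself. At the SFTPC body the peaks were 1 in NCI-H358 (22157060 to 22157487, fold 3.09, 15 fragments) and 1 in HCC364 (22159616 to 22160054, fold 6.61, 27 fragments).

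The 3 regions bound in 4 lines lay over REEP4 (22140677 to 22141557; folds 4.93, 15.6, 9.08 and 10.7) and over BMP1 (22203524 to 22204465; 7.11, 9.63, 13.0 and 10.7, and 22210414 to 22211910; 7.68, 15.5, 11.4 and 21.8), with H3K27ac in 4 lines at each. Also over BMP1 lay the second strongest regions of NCI-H441 (22167397 to 22167976, fold 12.2) and HCC364 (22190999 to 22191681, fold 16.0). H3K27ac covered 28.4 kb of the window in NCI-H358 and 33.1 kb in HCC364, against 7.18 kb in NCI-H2087 and 12.8 kb in NCI-H441. The widest H3K27ac peak of the 4 loci, 7.52 kb in NCI-H358 (22185757 to 22193278), lay within BMP1.

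In NCI-H2087 the body of SFTPC had RNAPolII (22160686 to 22162088, fold 8.78) and c-Jun (folds 8.47 and 5.17) without NKX2-1, FOXA1 or FOXA2 at those peaks. An H3K4me3 peak (22164447 to 22166530, fold 29.3) spanned the interval between both genes. The relative local background was 0.717, 0.911, 0.732 and 0.999 in NCI-H2087, then NCI-H358, NCI-H441 and HCC364. In the NKX2-1, H3K27ac and H3K4me1 libraries of NCI-H2087 and NCI-H441 it equalled the lowest background of each library. A lower level could not show there, so these lines cannot be ranked by it. The part of the background in the counts was not tested.

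**Figure D4:**
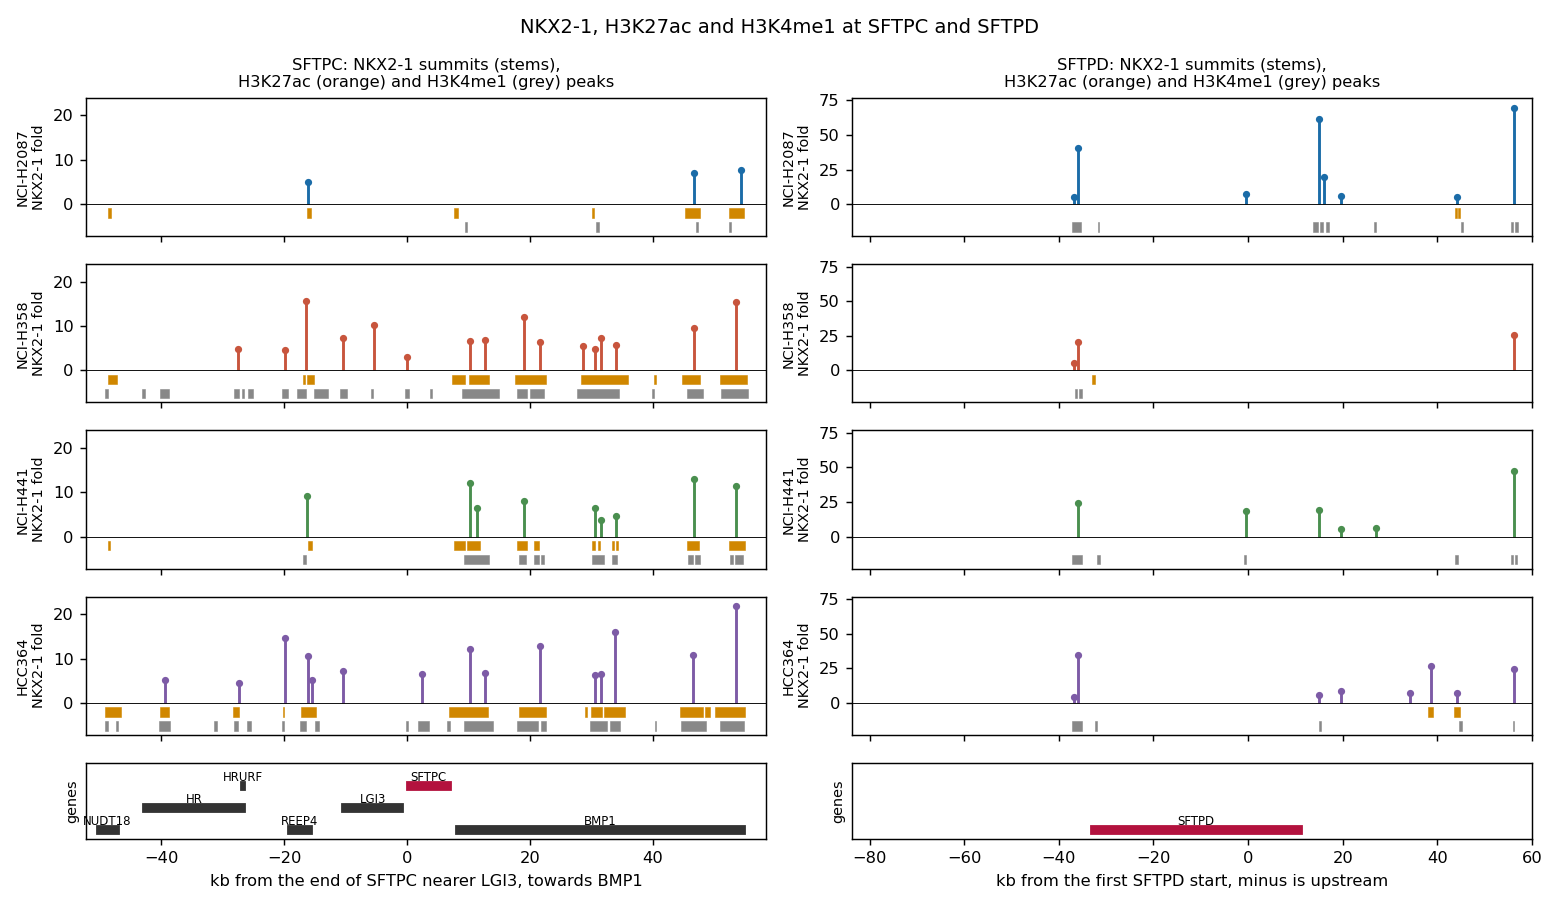
NKX2-1 summits (stems; vertical axes, fold over local background, with different scales left and right) and H3K27ac (orange) and H3K4me1 (grey) peaks against distance in kb, for SFTPC (left) and SFTPD (right) in the 4 lines, with protein-coding genes below. At SFTPC most stems and orange boxes stand over BMP1 and REEP4; at SFTPD the stems 56.2 kb downstream and 36.3 kb upstream recur in 4 lines without an orange box.

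Counted at the starts, NKX2-1 lay within 1 kb of 4 of 5 members for NCI-H2087 (47.7% of the 15812 genes with an annotated start), 1 for NCI-H358 (44.4%), 4 for NCI-H441 (46.8%) and 3 for HCC364 (52.4%). The member in NCI-H358 was SFTPC, by its weak peak at the lower end. H3K27ac lay within 1 kb of 4 members for NCI-H2087 (60.5%), 1 for NCI-H358 (59.8%), 4 for NCI-H441 (58.8%) and 2 for HCC364 (61.0%). SFTPC counted in each line by its end beside BMP1, where the H3K27ac folds were 4.74, 15.5, 7.94 and 13.6; without it the numbers were 3, 0, 3 and 1. In NCI-H2087 FOXA1 lay at 3 member starts (20.8% of all genes), FOXA2 at 3 (21.8%), RNAPolII at 2 (56.9%) and H3K4me3 at 1, the BMP1 side of SFTPC (69.2%).

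The acetylation of NKX2-1 peaks was next set against the acetylation of the same places in other lines. Of the NKX2-1 peaks at the 4 loci, 17 of 35 overlapped H3K27ac for NCI-H2087 (52.5% of all NKX2-1 peaks), 14 of 27 for NCI-H358 (51.3%), 27 of 46 for NCI-H441 (46.4%) and 30 of 46 for HCC364 (51.6%). As percentages these are 48.6% (exact 95% interval 31.4 to 66.0), 51.9% (31.9 to 71.3), 58.7% (43.2 to 73.0) and 65.2% (49.8 to 78.6), so in each line the genome-wide share lay inside the interval. The intervals cover counting error only and treat neighbouring peaks as independent.

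The peaks of a line overlapped its own H3K27ac in 56.1% ± 7.41 of cases (mean and SD, n = 4 lines) and the H3K27ac of the other lines in 42.6% ± 8.91. The difference was 13.5 ± 12.6 percentage points, about as large as its SD, and positive in 3 of 4 lines. It was 3.55 points when 250 bp around each summit were used in place of the whole peaks and 7.07 points with the 20000 strongest peaks of each list. It was 13.3 points for NCI-H2087, -3.70 for NCI-H358, 18.1 for NCI-H441 and 26.1 for HCC364. NCI-H358 peaks overlapped the H3K27ac of HCC364 more often (20 of 27) than their own.

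H3K4me1 overlapped 22 of 35 NKX2-1 peaks for NCI-H2087 (61.7% of all), 25 of 27 for NCI-H358 (69.0%), 36 of 46 for NCI-H441 (69.6%) and 35 of 46 for HCC364 (62.6%). The share in NCI-H358, 92.6% (75.7 to 99.1), was the one whose interval lay above the genome-wide share. Of its 27 peaks 16 lay at SFTPC, several of them under a single wide H3K4me1 peak within BMP1. The interval treats these peaks as independent, so it is no test. Own-line H3K4me1 overlapped 77.4% ± 12.2 of peaks and that of the other lines 57.8% ± 9.54. This difference was 19.7 ± 6.34 points (SD, n = 4 lines) and positive in 4 of 4 lines. The 4 line values are not independent, since the marks of each line also serve as those of the other lines. For neither mark is the difference over all NKX2-1 peaks given here, so it cannot be read as particular to these loci. The summit and strongest-peak settings were run for H3K27ac only.

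The factors of NCI-H2087 were counted at its 35 NKX2-1 peaks. FOXA1 overlapped 19 (53.8% of all NKX2-1 peaks did) and FOXA2 20 (58.6%). c-Jun overlapped 16 (27.6%), or 45.7% (28.8 to 63.4), an interval just above that background. The intervals treat neighbouring peaks as independent, though some shared 1 c-Jun peak, such as that at SFTPB from 85701626 to 85702605. They are therefore no test against the background. SOX2 overlapped 8 (11.6%) and EP300 7 (9.24%), or 22.9% (10.4 to 40.1) and 20.0% (8.44 to 36.9), intervals that include the background. CTCF overlapped 6 (20.6%), RNAPolII 12 (24.8%) and H3K4me3 4 (20.4%).

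At least 3 of the 5 partner factors lay at 15 of the 35 peaks (26.6% of all NKX2-1 peaks), 5 at the SFTPA pair, 6 at SFTPB, 1 at SFTPC and 3 at SFTPD. All 5 lay at 5 peaks, the 2 SFTPA elements, the SFTPB region 42.4 kb upstream and the SFTPD regions 14.9 and 56.2 kb downstream. No partner factor lay at 11 peaks. Those 11 had NKX2-1 folds of at most 18.1, and the 5 peaks with all partners had 60.3 or more. The ranges overlapped in between: peaks with 3 or more partners had folds from 4.53, and the strongest peak of all (89.7) had 4 partners. Every SOX2 peak (8 of 8; 96.5% of all SOX2 peaks), every EP300 peak (7 of 7; 96.3%) and 14 of 16 c-Jun peaks (91.3%) in the windows overlapped NKX2-1, shares close to the background. SOX2 was present in the windows of 4 of 5 members (32.6% of all genes) and EP300 of 4 (44.1%), with SFTPC the exception for both. c-Jun was present at 5 (65.7%), RNAPolII at 5 (79.8%) and H3K4me3 at 3 (87.7%), with no H3K4me3 for the SFTPA pair.

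**Figure D5:**
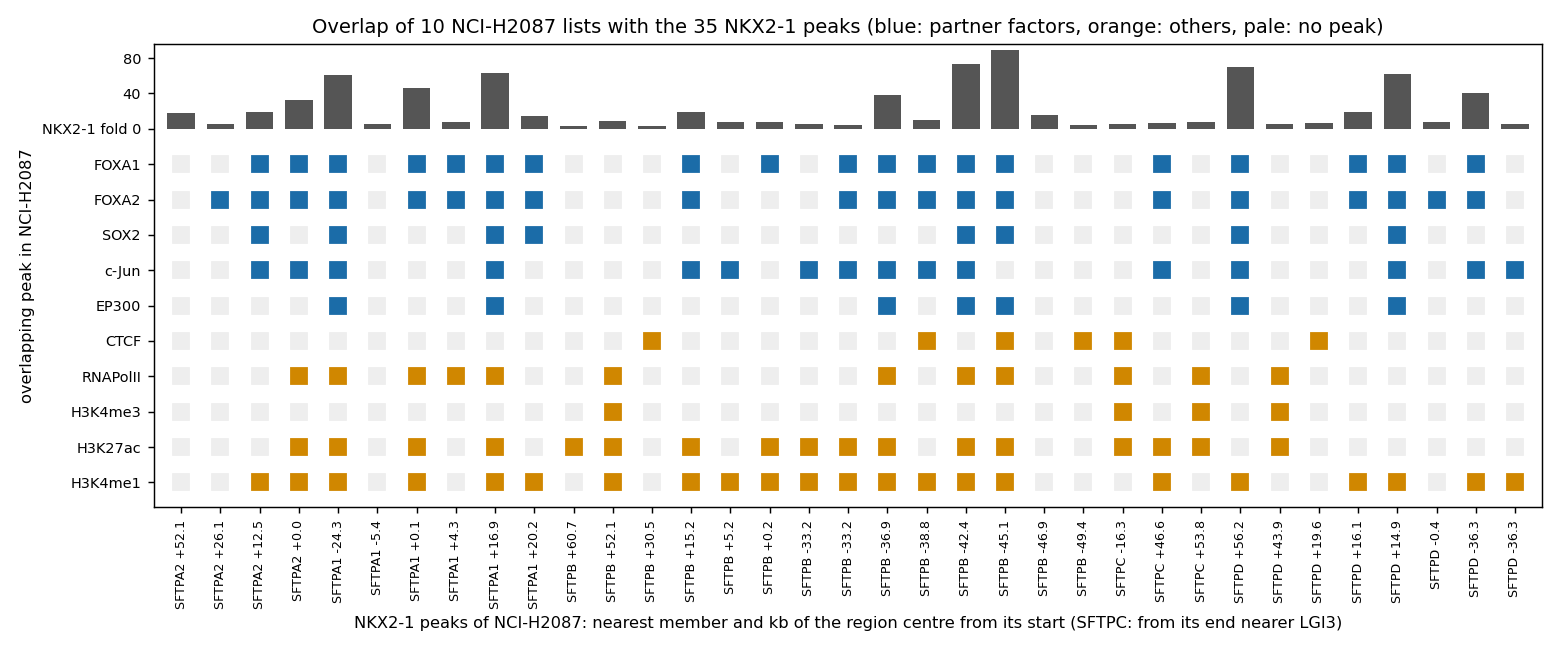
Each column is 1 of the 35 NKX2-1 peaks of NCI-H2087 at the surfactant loci, with its NKX2-1 fold as a bar and a filled square for each of 10 lists (rows) with an overlapping peak. The 5 columns filled for all 5 partner factors (blue) have NKX2-1 folds of 60.3 or more; H3K27ac (orange) is absent from both of them at SFTPD.

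The surfactant processing and type 2 cell list holds 10 genes. All 10 had NKX2-1 in their window in each of the 4 lines, where 90.4% to 94.8% of all genes did. All 10 also had a region bound in 4 lines, against 80.5% of all genes. Most genes have such peaks, so these counts say little about the list. The median was 5 such regions per gene, where the surfactant proteins had a median of 2 and all protein-coding genes 2. Summed over the 4 lines, the surfactant proteins had a median of 25 NKX2-1 peaks, the processing list 38.5 and all genes 24. By peaks summed, over windows of unequal length, the first 3 of the processing list were SFTA3 (81 peaks), ADGRF5 (64) and LPCAT1 (54). SFTA3 overlaps the NKX2-1 gene, so its window shares peaks with that of NKX2-1, which had 75 and is taken up further below. ADGRF5 is a receptor that limits the surfactant pool, and LPCAT1 is a lysophospholipid acyltransferase of surfactant lipid. Named for their roles and outside those 3 were NAPSA, the protease that processes the SFTPB precursor (40), CTSH, a further protease of that step (43), and ABCA3, the lipid transporter of lamellar bodies (25). H3K27ac lay at the start of 5, 3, 7 and 7 of these 10 genes in NCI-H2087, then NCI-H358, NCI-H441 and HCC364. Of all genes with an annotated start, 60.5%, 59.8%, 58.8% and 61.0% had it in the same order. NCI-H358 was lowest here too, by counts from 10 genes and 1 library per line.

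Other genes had peak counts that moved across the 12 libraries of the 3 shared antibodies much as those of a member did. This was measured by Pearson's r of log2(peaks + 1) after the mean over all genes of each list was removed, with no test, since the points share 4 lines. The most alike were IL1RL1 (r = 0.972), IL18R1 (0.961) and USP35 (0.960) for SFTPA1, and LOC105371206 (0.976), DNAAF11 (0.970) and C12orf42 (0.968) for SFTPA2. For SFTPB they were GOLGA8N (0.947), RBM33 (0.923) and ARHGAP11A-SCG5 (0.921), for SFTPC NOVA1 (0.942), MSANTD3 (0.931) and BIN3 (0.918), and for SFTPD MARS1 (0.911), AKR1C8 (0.905) and ATXN7L1 (0.899). IL1RL1 and IL18R1 are both on chromosome 2. Only genes whose window overlaps that of the member were left out, so named genes may share peaks with each other.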

How the data were processed

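Peaks of 20 ChIP-seq libraries were analysed, 11 of NCI-H2087 and 3 of each other line. Per the submitters' processing notes, the tools were MACS2 (versions 2.1.1 and 2.2.7.1, with no word on which made which list), Bowtie2 2.2.9, Trimmomatic 0.36, bedtools and SAMtools 1.9, and the builds hg38 and GRCh38. The deposited lists give for each peak a score, a fold over local background, a −log10 p-value and a −log10 q-value, with the lowest −log10 q between 3.00 and 3.14, and the summit as a distance in bases, classed as other. Everything else was computed with Python 3.11.15, numpy 2.4.6, pandas 2.3.3 and scipy 1.17.1. Fragments at the summit and the local background were solved from each peak's fold and −log10 p, which worked to within 0.01 for at least 99.96% of peaks of each list. Relative local background is the median within 1 Mb of a locus over the library median. Overlap meant at least 1 shared base, regions were merged overlapping peaks, and a start was within 1 kb. Intervals are exact Clopper-Pearson 95% intervals. Peak positions were matched to the RefSeq gene and promoter tables (GRCh38.p14).

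The members, gene lists and alternatives were chosen with earlier results of these data known. Named by rule were the members, regions bound in 4 lines, the 2 strongest regions per locus and line, the NCI-H2087 region with most partner factors, the 3 genes of each list with most NKX2-1 peaks and the 3 genes most alike to each member; other regions were chosen after their values were seen. The counting steps were tested on simulated data. Alternatives were stricter peak thresholds, other windows, overlaps and starts, and other measures of likeness; the background radius was chosen after seeing the data.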

Additional observations from a re-analysis of the deposited data

How the results depend on the processing

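No paired analysis was possible because each line and antibody is 1 library. Leaving out a replicate was not run for the same reason, and differences between lines have no replicate error.

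Of 41 values recomputed under another setting, 28 stayed within their limits and 13 moved. Counts were allowed to change by a set ratio, so those that stayed could still differ. The excess of own-line over other-line H3K27ac at NKX2-1 peaks, 13.5 points, stayed positive at 3.55 to 21.0 points. Its limit was its SD of 12.6 points, so even the fall to 3.55 points counted as staying. For the values that moved, the cause was not tested beyond what each setting itself removes or adds. With the 20000 strongest peaks of each list, NKX2-1 regions numbered 24 and those bound in 4 lines 4, against 67 and 11, and members with H3K27ac at the start numbered 1 in NCI-H2087, 1 in NCI-H441 and 1 in HCC364, against 4, 4 and 2. With a −log10 q of at least 10, NCI-H2087 had 2 such members. With either annotated end of each gene taken as its start, NCI-H358 had 2, against 1. With 10 kb on each side, 27 regions lay in the windows, 1 of them bound in 4 lines, and 6 NCI-H2087 peaks had at least 3 partners, against 15. With 100 kb on each side, 18 regions were bound in 4 lines. Of the genes most alike to each member, 1 of 15 was shared when all 20 lists were used and 1 of 15 when covered length replaced peak counts. With a 0.5 Mb radius, chosen after seeing the data, 5 of 16 local background values moved, by at most 0.0821. Fragment counts limit the weakest peaks, such as that of 15 fragments at SFTPC in NCI-H358.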

Other observations

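The collectin and saposin relatives (MBL2, COLEC10, COLEC11, COLEC12 and PSAP) had a median of 20 NKX2-1 peaks summed over the 4 lines, where the surfactant proteins had 25 and all protein-coding genes 24. PSAP, the precursor of the saposins, whose fold SFTPB shares, had 12 peaks for NCI-H2087, 10 for NCI-H358, 16 for NCI-H441 and 19 for HCC364, and each of the 4 lines had H3K27ac beside one of its ends. COLEC10, a collectin of liver and other tissues, had 14, 22, 13 and 6, and COLEC11, a soluble collectin, had 6, 6, 4 and 4. MBL2, the mannose-binding lectin of serum, had no H3K27ac peak in its window in any of the 4 lines.

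The 6 genes of the factors profiled had a median of 42.5. NKX2-1 itself had 17, 14, 22 and 22 NKX2-1 peaks in NCI-H2087, then NCI-H358, NCI-H441 and HCC364, and JUN had 11, 15, 16 and 11. FOXA1 had 15, 14, 17 and 2, so HCC364 stood apart there. H3K27ac lay at the start of 5 of these 6 genes in 4 lines, the exception being FOXA2, which had none in NCI-H441. In single lines 58.8% to 61.0% of all genes with an annotated start had it. The share with it in 4 lines is not given here.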
